A study of Mus musculus with 10 samples.

Results

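The amount of slow-fibre RNA differed widely among the gastrocnemius libraries of 10 mice, and the animals were compared here by that amount. The 10 libraries are all those of the series. The members of each group were chosen by the measured level of *Myh7*, the slow (type I) myosin heavy chain. With it, 5 mice had more than 100 CPM (counts per 1e+06 of normalized library size) and are called Myh7-high, and 5 had fewer and are called Myh7-low. This split comes from the measured values and is not a group of the study. The Myh7-high mice were AHRfl 15 and 33 and AHRmKO 8, 19 and 22, and the Myh7-low mice were AHRfl 11, 12 and 13 and AHRmKO 9 and 34. The genotype was therefore a covariate in the fits that gave log2 fold changes, but not in ratios of mean CPM, myosin shares or counts of genes without overlap.

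The study asked how loss of AHR, the aryl hydrocarbon receptor, a transcription factor switched on by its ligands, alters muscle under cigarette smoke. All mice were males on the C57BL6J background that received tamoxifen and were exposed to smoke for 16 weeks, with 2 exposures of 1 h a day on 5 days of each week at 220 ± 80 mg/m3 of suspended particulates. Muscle was taken days after the last exposure and at most 72 h after it, a time at which the study describes AHR activation as back at baseline. Air-exposed muscle was not analysed here. AHRmKO mice carry a floxed *Ahr* and HSA-MCM, a tamoxifen-inducible Cre driven by the human skeletal actin promoter, so that only cells using this promoter recombine, and AHRfl mice are littermates without Cre. The study calls its smoke-exposed mice aged, and the sources used here give no age in weeks or months for them. These sources do not state which portion of the gastrocnemius, a muscle with a deep red and a superficial white region, supplied the RNA. The study's methods describe cutting out the red part for fibre bundles. The rest went to mitochondria or was frozen for later analysis, and whether the RNA came from it is not said.

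Skeletal muscle fibres are built from sets of contractile isoforms. Slow type I fibres use *Myh7* with their own light chains, troponins and tropomyosin, take calcium back with SERCA2 (*Atp2a2*) and burn fat, whereas fast fibres use *Myh2* (type IIA), *Myh1* (type IIX) or *Myh4* (type IIB), the last being glycolytic and dominant in the white gastrocnemius of the mouse. Some myosin genes also carry a microRNA in an intron. In whole muscle RNA, a smaller number of slow fibres and less slow RNA per fibre cannot be told apart.

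The libraries held between 30393035 and 37954388 counts in the Myh7-high mice and between 34513601 and 36749146 in the Myh7-low mice, and no pair held identical counts. Transcripts of mitochondrial DNA took 9.65 to 11.4% of the counts in the Myh7-high group and 7.29 to 10.5% in the Myh7-low group, and the number of genes with a count ran from 21832 to 25494 and from 21296 to 22368. The part of these values in the results was not tested. *Ahr* lay between 1.33 and 3.12 CPM in AHRfl and between 0.929 and 2.17 CPM in AHRmKO mice, so gene-level counts did not separate the genotypes. Counts of *Esr1*, part of whose sequence is in the MerCreMer transgene, did, at 15.9 to 19 CPM in AHRfl and 267 to 678 CPM in AHRmKO mice. Although the study describes every mouse as male and each had Y-linked transcripts, 5 libraries also held 44 to 75 counts of *Xist*, the RNA of the inactive X chromosome, and the other 5 held at most 3. Of the 5 libraries with 44 to 75 counts, 3 were Myh7-high and 2 Myh7-low. Fits that leave them out rest on the other 5 libraries, and the part of the smaller number of mice in those results was not tested.

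The sequences tied to the grouping gene are shown first. *Myh7* (ENSMUSG00000053093) occupies 54970684 to 54994626 of chromosome 14 (GRCm38, minus strand), and *Myh7b*, a related myosin gene, occupies 155611212 to 155634307 of chromosome 2 (plus strand). In RefSeq, miR-208b lies within *Myh7*, miR-499 within *Myh7b* and miR-208a within the cardiac myosin gene *Myh6*, each on the strand of its host. The mature microRNAs were not measured by these poly(A) libraries. Their sequences are given because the host genes *Myh7*, *Myh7b* and *Myh6* had ratios of mean CPM between the groups of 24.4, 8.65 and 7.85, with the seed (bases 2 to 8) in capitals.
miR-208b-3p: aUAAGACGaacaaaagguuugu
miR-208a-3p: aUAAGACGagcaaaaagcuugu
miR-499-5p: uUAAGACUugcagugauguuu
The seed of miR-208b-3p was the same as that of miR-208a-3p, and that of miR-499-5p was not identical to it.

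Promoters were examined because the slow contractile genes vary together. The 250 bases before the RefSeq start (GRCm38.p6) were searched on both strands for the MCAT element (CATTCC), bound by TEAD factors, and for the E-box CAGCTG, bound by myogenic helix-loop-helix factors. MCAT was present for 3 of the 15 slow contractile genes (*Myh7*, *Myl3* and *Tnnc1*), against 12.6% of all 32851 windows. It was present for 5 of the 8 fast contractile genes that had a window. The E-box was found for 5 slow and 3 fast genes, against 13% of all windows. Genes may have more than 1 window and were counted if any of them matched, whereas the background is a share of single windows. *Myh7* has 2 windows, and the window not shown holds 0 MCAT matches. A match describes the letters alone. The windows of *Myh7* (chr14:54994627-54994876, minus strand) and *Tnnc1* (chr14:31208062-31208311, plus strand) follow, 5′ to 3′, with the MCAT match, read on the opposite strand in both, in capitals.
Myh7 promoter: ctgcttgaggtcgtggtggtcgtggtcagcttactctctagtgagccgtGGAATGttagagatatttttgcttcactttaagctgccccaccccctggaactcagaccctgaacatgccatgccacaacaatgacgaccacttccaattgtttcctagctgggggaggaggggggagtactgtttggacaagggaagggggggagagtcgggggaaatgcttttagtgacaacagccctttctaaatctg
Tnnc1 promoter: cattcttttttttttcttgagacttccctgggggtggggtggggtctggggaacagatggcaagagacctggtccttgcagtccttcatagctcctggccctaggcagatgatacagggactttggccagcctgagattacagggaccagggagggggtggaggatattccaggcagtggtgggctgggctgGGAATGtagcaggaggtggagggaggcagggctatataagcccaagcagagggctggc

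*Myh7* was at 489 CPM in AHRfl mouse 15, 285 CPM in mouse 33, 631 CPM in AHRmKO mouse 8, 127 CPM in mouse 19 and 441 CPM in mouse 22. In the Myh7-low group it was at 14.3, 3.32 and 9.34 CPM in AHRfl mice 11, 12 and 13 and at 5.70 and 48.1 CPM in AHRmKO mice 9 and 34. The mouse just above the limit was thus AHRmKO 19 and the one just below it AHRmKO 34. Since *Myh7* set the groups, these values are a description, and the same holds for the slow-fibre genes that accompany it, for which no p-value of the split is given.

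The other 3 slow-fibre markers separated the same mice (plot of slow-fibre genes). *Tnnt1*, the slow troponin T, was at 202 and 127 CPM in the Myh7-high AHRfl mice 15 and 33 and at 223, 57.8 and 176 CPM in AHRmKO mice 8, 19 and 22. In the Myh7-low mice it was at 14.5, 3.46 and 15.8 CPM in AHRfl 11, 12 and 13 and at 11.8 and 21.6 CPM in AHRmKO 9 and 34. The groups did not overlap, and the ratio of their means was 11.7. *Tnni1*, the slow troponin I, was at 82.8, 50.02, 84.5, 21.2 and 69.1 CPM in the Myh7-high mice in the same order, and at 4.0, 1.21, 2.32, 1.57 and 8.12 CPM in the Myh7-low mice, a ratio of 17.9 with no overlap. *Myl2*, the slow regulatory light chain, was at 236, 161, 264, 69.6 and 173 CPM against 53.0, 4.94, 53.3, 47.0 and 41.2 CPM, a ratio of 4.53. AHRmKO 19 was the lowest Myh7-high mouse for all 3 markers and AHRfl 12 the lowest Myh7-low mouse. For *Myl2*, the other 4 Myh7-low mice lay close together and AHRfl 12 far below them.

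**Figure D1:**
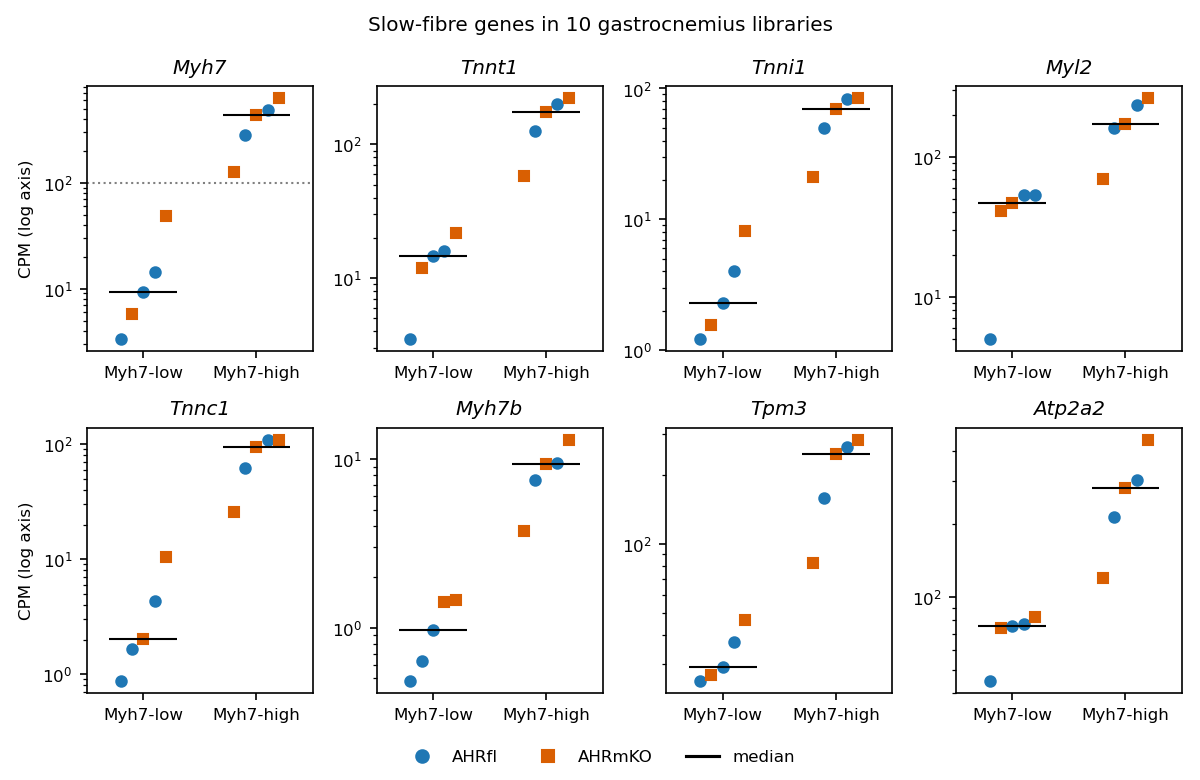
CPM (log axis) of 8 slow-fibre genes in each mouse, Myh7-low left and Myh7-high right, with circles for AHRfl, squares for AHRmKO and a bar at the median of 5 mice. The dotted line is the limit of 100 CPM that defined the groups, points are sorted by value within a group, and the groups do not overlap for any of the 8 genes.

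*Tnnc1*, the slow and cardiac troponin C, had the second highest ratio of the slow contractile list after *Myh7* itself, 20.8 against 24.4. It was at 108 and 61.7 CPM in AHRfl 15 and 33 and at 109, 25.5 and 94.7 CPM in AHRmKO 8, 19 and 22, whereas the Myh7-low mice ranged from 0.866 to 10.4 CPM. *Myh7b* was weakly expressed, at 9.43, 7.49, 12.9, 3.73 and 9.28 CPM in the Myh7-high mice and at 0.966, 0.635, 0.480, 1.47 and 1.41 CPM in the Myh7-low mice. These correspond to 131 to 492 counts and to 17 to 54 counts. *Tpm3*, the slow tropomyosin gene, was at 207 ± 84.5 CPM in Myh7-high and 33 ± 8.92 CPM in Myh7-low mice (SD, n = 5 each), and *Myl3*, the slow essential light chain, at 245 ± 106 and 51.7 ± 27.5 CPM. *Lmod2*, an actin filament nucleator, ranged from 195 to 240 CPM against 64.6 to 180 CPM. All of these kept the groups apart.

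Not every slow contractile gene did so. Of the 15 listed, *Myh7* and 8 others did not overlap between the groups, against 3.6% of all genes tested, and the median log2 fold change of the 14 others was 1.76, against 0.01 over all 15904 genes tested. *Ankrd2*, *Myoz2*, *Mybpc1*, *Myom3* and *Csrp3*, which encode Z-disc, M-band or thick-filament proteins, had ratios between 1.63 and 2.5 with overlapping groups. For *Mybpc1* (599 CPM), *Myom3* (34.7 CPM) and *Myoz2* (72.6 CPM), AHRmKO 19 lay within the range of the Myh7-low mice. *Myl6b* was close to equal, at 6.32 to 8.07 CPM against 5.24 to 7.54 CPM. Of the 4 slow calcium-handling genes, *Atp2a2* was at 304, 214, 444, 119 and 280 CPM against 76.1, 44.8, 77.3, 74.6 and 82.1 CPM, without overlap, and *Casq2*, the slow and cardiac calsequestrin, had a ratio of 2.30 with overlap. *Pln* and *Sln*, the small peptides that inhibit SERCA pumps, had log2 fold changes of 0.26 and -0.50 with overlapping groups. Over single mice left out, *Pln* ranged from 0.16 (without AHRmKO 8) to 0.36 and *Sln* from -0.80 (without AHRmKO 9) to -0.32 (without AHRfl 13 or AHRmKO 34). *Sln* was at -0.90 in the AHRfl mice alone and at -0.09 in the AHRmKO mice alone. Over all alternatives besides left-out mice it ran from -0.90 to -0.026.

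The adult fast myosins were compared as shares and as counts. Fragments were divided by the exon length of each gene, and each adult myosin was expressed as a share of *Myh7*, *Myh2*, *Myh1* and *Myh4* together (plot of myosin shares). *Myh4* made up 88.4 ± 3.45% in the Myh7-high mice and 94.9 ± 2.37% in the Myh7-low mice (SD, n = 5 each), so type IIB myosin led in every mouse. *Myh2* made up 2.61 to 7.27% against 0.368 to 2.89%, *Myh1* 3.89 to 7.70% against 1.74 to 4.77%, and *Myh7* itself 0.154 to 0.758% against 0.00341 to 0.0507%. In CPM, *Myh2* was at 4216, 4123, 3790, 1768 and 2519 in the Myh7-high mice and at 1611, 297, 2086, 2128 and 1176 in the Myh7-low mice. AHRmKO 19 was again inside the Myh7-low range. The log2 fold change of *Myh2* was 1.18 (95% interval -0.08 to 2.43, adjusted p = 0.346 in edgeR), that of *Myh1* was 0.77 (-0.02 to 1.56) and that of *Myh4* -0.35 (-0.54 to -0.15), and none of them passed the test. Myosin genes share long stretches of sequence and only uniquely mapped reads were counted, so reads that fit several of them are missing.

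**Figure D2:**
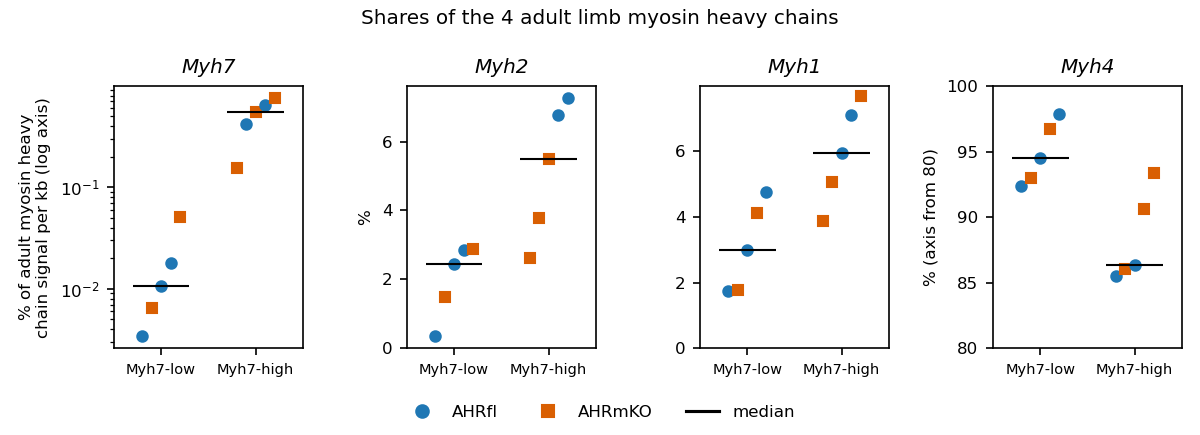
Share of each adult limb myosin heavy chain in the exon-length-scaled signal of the 4 genes, in percent, for each mouse, with circles for AHRfl, squares for AHRmKO and a bar at the group median. The *Myh7* axis is logarithmic and the *Myh4* axis starts at 80%. *Myh4* lies between 85.5 and 97.9% in all mice.

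None of the 14 fast contractile genes passed the test, in which 71 of 15904 genes (0.446%) had an adjusted p under 0.05. Their median log2 fold change was -0.20, with 12 below 0. *Mybpc2*, the fast myosin-binding protein C, was at -0.37 (standard error 0.10), *Actn3*, the actinin of fast fibres, at -0.35 (0.11), and only *Myh1* and *Myh2* were above 0. The 7 fast calcium-handling genes, among them *Atp2a1* (SERCA1) and *Pvalb* (parvalbumin), lay between -0.24 and -0.09, and none passed.

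Across all genes, 38 were higher (0.239%) and 33 lower (0.207%) in Myh7-high mice. This number depended on single animals. It fell to 0 without AHRfl 13, AHRfl 15, AHRfl 33 or AHRmKO 22, to 24 without AHRfl 11, 34 without AHRfl 12, 18 without AHRmKO 8 and 13 without AHRmKO 34, and reached 327 without AHRmKO 19 (plot of genes passing with each mouse left out). It was 95 without AHRmKO 9. With a covariate for libraries that hold *Xist* counts 7 genes passed, and without those 5 libraries 0 passed. DESeq2 called 589 genes, which held all of the 71, and 2507 genes (15.8%) had an unadjusted p under 0.05 in edgeR. The groups did not overlap for 573 genes (3.6%) and for 57 of the 71. An adjusted p here says that a gene varies with the *Myh7* split, not what the split reflects. The 71 include the slow contractile genes *Myh7b* and *Tpm3*, and nothing is read from their calls, since the split by *Myh7* selects such genes.

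**Figure D3:**
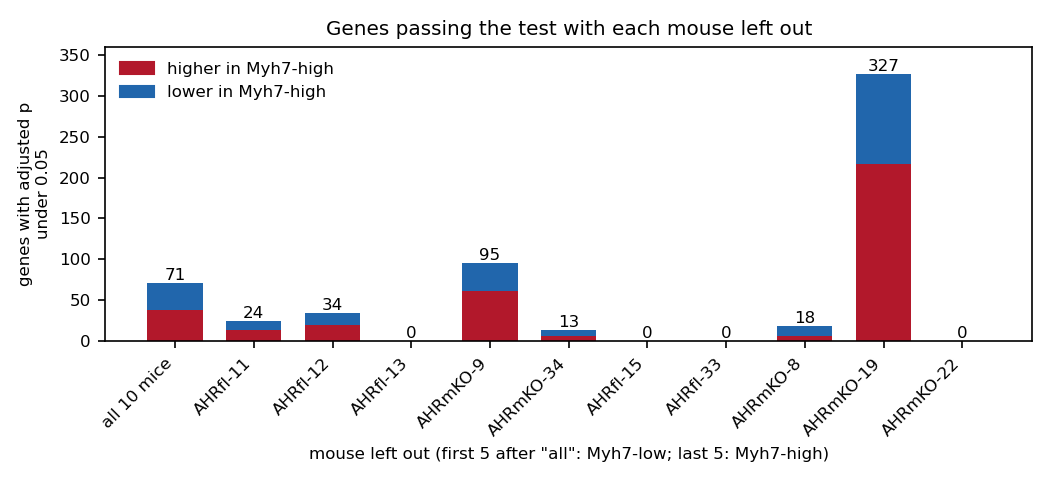
Genes that passed the test (edgeR, adjusted p under 0.05, genotype as covariate) with all 10 mice and with each mouse left out, red for higher and blue for lower in Myh7-high mice. The count runs from 0 to 327, and is highest without AHRmKO 19, the Myh7-high mouse nearest to the limit.

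The genes described next are single genes known from development (plot of 8 developmental genes), and enrichment for such genes among the 71 was not tested. A list of limb patterning genes was added to those planned. Of its 10 tested genes, 2 passed as higher, 1 passed as lower and 7 did not pass, against 0.446% of all genes that passed. Its median log2 fold change was 0.13, and *En1* and *Barx2* were its extremes. *Barx2*, a homeobox gene active in myogenic cells (chromosome 9, 31846044 to 31913462), was at 11.1 and 11.2 CPM in the Myh7-high AHRfl mice 15 and 33 and at 10.5, 3.64 and 7.55 CPM in AHRmKO 8, 19 and 22. The Myh7-low mice had 1.82, 1.15, 1.95, 2.52 and 2.37 CPM. The groups did not overlap, and the log2 fold change of 2.17 had a standard error of 0.33 (adjusted p = 0.0458). *Eya2*, a transcription cofactor with phosphatase activity, was at 2.83, 3.85, 3.12, 2.36 and 3.47 CPM against 1.34, 1.13, 0.904, 1.41 and 1.5 CPM, and rose by 1.30 (0.19, adjusted p = 0.0257).

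*Dkk2*, a secreted modulator of Wnt signalling (chromosome 3, 132085292 to 132180304), shared the smallest adjusted p of the comparison with *En1*. It was at 9.72, 7.12, 8.71, 5.78 and 11.1 CPM in the Myh7-high mice and at 2.81, 3.23, 2.34, 3.75 and 2.91 CPM in the Myh7-low mice, a log2 fold change of 1.47 (0.18, adjusted p = 0.0185). *En1*, the homeobox gene of ventral limb identity (chromosome 1, 120602418 to 120607992), went the other way. It was at 7.75, 8.08, 5.56, 6.66 and 5.05 CPM in the Myh7-high mice and at 14.2, 15, 15.4, 12.3 and 8.51 CPM in the Myh7-low mice, with a log2 fold change of -0.89 (0.11, adjusted p = 0.0185). The groups stayed apart, but AHRmKO 34 was close to the Myh7-high range. *Tbx15*, a T-box factor of glycolytic fast fibres, was at 219, 215, 205, 250 and 240 CPM against 290, 298, 290, 299 and 265 CPM, with a log2 fold change of -0.36 (0.07, adjusted p = 0.0458). It was the only one of the 12 regulators of the fast programme to pass, against 0.207% of all genes that passed as lower.

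A pair of distal *Hoxa* genes, from the cluster that patterns the limb from its root to its tip, were lower in Myh7-high mice. *Hoxa13* (chromosome 6, 52257694 to 52260880) was at 1.74, 2.06, 2.02, 2.25 and 2.5 CPM in the Myh7-high mice and at 7.21, 6.41, 9.26 and 6.46 CPM in Myh7-low mice AHRfl 11, 12 and 13 and AHRmKO 9. AHRmKO 34 had 2.85 CPM, just above the Myh7-high mice. The log2 fold change was -1.51 (0.26, adjusted p = 0.0458). *Hoxa11* (chromosome 6, 52242106 to 52245810) was at 1.72, 1.63, 1.55, 2.02 and 2.21 CPM against 6.45, 7.56, 6.50, 6.70 and, in AHRmKO 34, 2.16 CPM. The log2 fold change was -1.61 (0.29, adjusted p = 0.0467), and here AHRmKO 34 lay inside the Myh7-high range. These 2 were the only ones of 30 Hox genes tested to pass, against 0.207% of all genes that passed as lower. The list was drawn up after *Hoxa11* and *Hoxa13* were seen among the results, and its median log2 fold change was 0.01. *Hoxa10*, their neighbour, was at 12.7 to 15.8 CPM against 16.3 to 19.2 CPM (log2 fold change -0.29, adjusted p = 0.118), and *Lbx1*, a homeobox gene of migrating limb muscle precursors, at 67.0 to 83.7 CPM against 90.0 to 124 CPM (-0.39, adjusted p = 0.0681). Both kept the groups apart without passing the test.

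**Figure D4:**
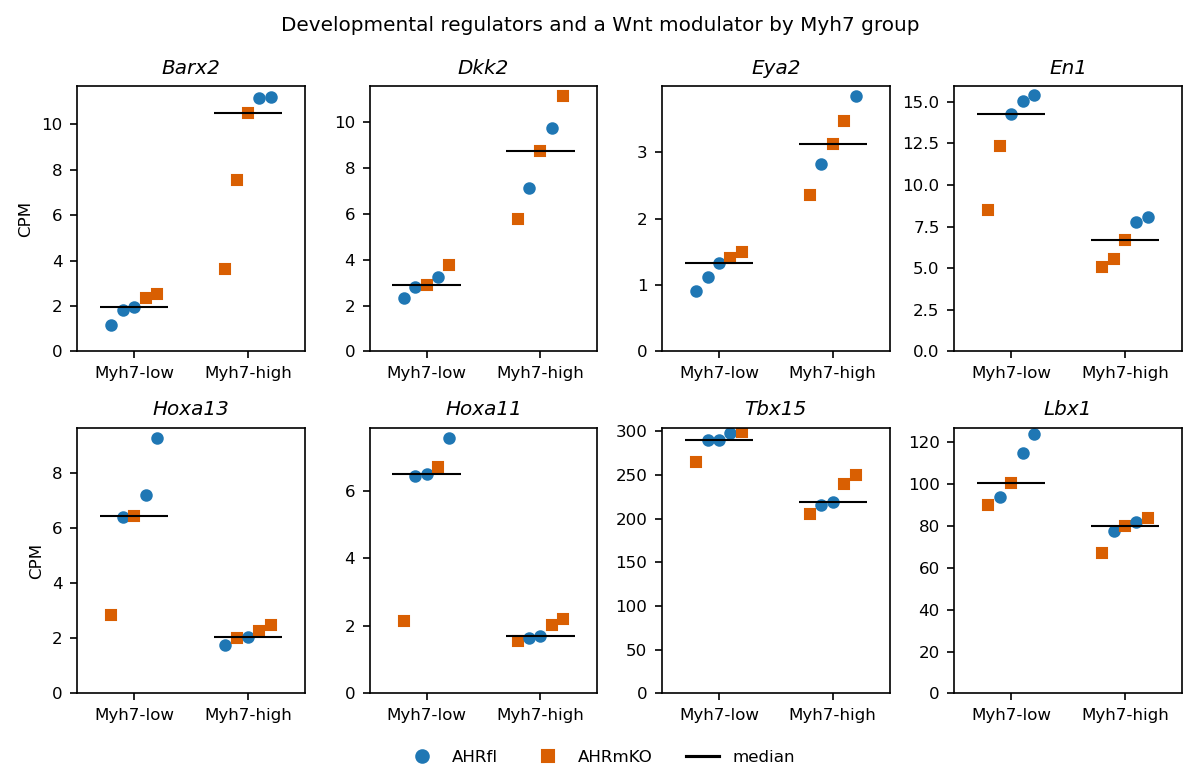
CPM of 8 developmental genes in each mouse, Myh7-low left and Myh7-high right, with circles for AHRfl, squares for AHRmKO and a bar at the median. *Barx2*, *Dkk2* and *Eya2* are higher and *En1*, *Hoxa13*, *Tbx15* and *Lbx1* lower in all Myh7-high mice, *Lbx1* did not pass the test, and the Myh7-low square at the level of the Myh7-high mice in *Hoxa11* is AHRmKO 34.

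These differences had the same sign in both genotypes. For genes whose groups do not overlap, the sign within each genotype is fixed by that, so it is a description and no separate support. *Barx2* differed by 2.77 (standard error 0.21) between the AHRfl mice of the 2 groups and by 1.56 (0.44) between the AHRmKO mice, *Dkk2* by 1.60 and 1.36, *En1* by -0.90 and -0.86 and *Hoxa13* by -1.99 and -1.05, all on the log2 scale. The difference between genotypes was tested as an interaction, which passed for 0 of 15904 genes (0%) in edgeR. In that test 405 genes had an unadjusted p under 0.05, and DESeq2 called 5. With single mice left out, *Barx2* stayed between 2.02 and 2.36, *Dkk2* between 1.35 and 1.59, *En1* between -0.98 and -0.78 and *Hoxa13* between -1.80 and -1.35. Of these 10 fits, *Barx2* and *Hoxa13* passed in 2 and *Dkk2* and *En1* in 6, with highest adjusted p between 0.105 and 0.191 in edgeR. Other settings moved the values further. Without the 5 libraries with *Xist* counts, where 0 genes passed, *En1* was at -0.49, *Hoxa13* at -0.43, *Hoxa11* at -0.29, *Tbx15* at -0.23 and *Eya2* at 0.86, and with the summed tendon genes as a covariate *Dkk2* was at 0.95.

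The other genes named by rule among those higher in Myh7-high mice had log2 fold changes from 1.02 to 2.08. *Lgi1*, a secreted neuronal protein, was at 3.03, 3.21, 3.33, 1.20 and 2.00 CPM against 0.369, 0.231, 0.847, 0.869 and 0.689 CPM. *Khdrbs3*, an RNA-binding splicing regulator, was at 13.2 to 22.1 CPM against 5.60 to 10.6 CPM. *Lrrc52*, an auxiliary potassium channel subunit, was the steadiest of these within the Myh7-high mice, at 9.13 to 10.9 CPM against 2.92 to 6.77 CPM (log2 fold change 1.08, standard error 0.16). *Ift81* of the intraflagellar transport complex (1.13), *Unc13d*, a granule exocytosis factor (1.25), *Pi16*, a peptidase inhibitor of fibroblasts (1.02), the zinc finger gene *Zfp385b* (1.03) and *Tmem116* (1.35) completed the group. All had adjusted p between 0.0257 and 0.0467 in edgeR and no overlap between the groups. Without the libraries with *Xist* counts the log2 fold changes of *Lrrc52*, *Pi16*, *Unc13d* and *Tmem116* were 0.49, 0.58, 0.81 and 2.07, and with the tendon covariate that of *Ift81* was 0.72.

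The genes named by rule among those lower in Myh7-high mice changed less apart from *Hoxa13*. *Ush1c*, which encodes the scaffold harmonin, was at 5.29, 4.47, 9.05, 7.06 and 6.68 CPM in the Myh7-high mice and within 11.5 to 12.7 CPM in all Myh7-low mice (log2 fold change -0.96, standard error 0.14). *Mib1*, a ubiquitin ligase for Notch ligands, was at 84.9 to 120 CPM against 125 to 160 CPM (-0.59, standard error 0.09). *Adamts9*, a metalloprotease of the extracellular matrix, and *Ankrd6*, a Wnt and planar polarity protein, had log2 fold changes of -0.84 and -0.61. *Col7a1*, the collagen of anchoring fibrils (-0.57), *Hip1r*, which links clathrin coats to actin (-0.52), *Tmem87a* (-0.50), *Cpeb1*, a regulator of polyadenylation (-0.50), *Vwa7* (-0.49) and the tubulin-modifying *Ttll7* (-0.48) made up the rest. Their adjusted p lay between 0.0257 and 0.0458. Without the libraries with *Xist* counts *Ush1c*, *Ankrd6* and *Cpeb1* were at -0.60, -0.36 and -0.32.

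Genes of fat oxidation had positive fold changes throughout, and 1 of the 28 passed, against 0.239% of all genes that passed as higher (plot of fold changes by list). That gene was *Cpt2*, the inner-membrane carnitine palmitoyltransferase, at 64.3, 57.9, 55.6, 55.8 and 57.9 CPM against 46.8, 41.3, 47.5, 50.1 and 45.1 CPM (log2 fold change 0.34, standard error 0.07, adjusted p = 0.0480). All 28 log2 fold changes were above 0, with a median of 0.34, and for 11 the groups did not overlap, against 3.6% of all genes tested. The 28 include *Mb* (myoglobin), which is not an enzyme of fat oxidation and made up a large part of the summed CPM. It was at 2474 to 3934 CPM in Myh7-high and 1025 to 3031 CPM in Myh7-low mice. Summed over the 28 genes, *Mb* among them, the groups overlapped, at 11100, 10033, 9170, 8532 and 8073 CPM in AHRfl 15 and 33 and AHRmKO 8, 19 and 22, and at 7858, 5511, 8187, 7761 and 5363 CPM in AHRfl 11, 12 and 13 and AHRmKO 9 and 34. AHRfl 12 and AHRmKO 34 lay far below the other Myh7-low mice, and they also had the highest sums of the immediate early genes, 579 and 573 CPM. The median log2 fold change of the 28 was 0.28 without AHRfl 12, 0.30 without AHRmKO 34 and 0.21 with the summed immediate early genes as a covariate. *Fabp3*, the fatty acid-binding protein of heart and slow muscle, had the largest value of the list, 1.04, at 400 to 673 CPM against 155 to 307 CPM. *Acadvl* and *Eci1*, both enzymes of beta-oxidation, had values of 0.37 and 0.38 (adjusted p = 0.0662 and 0.0619). The 76 nuclear genes of oxidative phosphorylation had a median of 0.12 and the 13 mitochondrially encoded genes a median of 0.15, and none of either list passed.

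In the citric acid cycle list, with a median of 0.08 over 14 genes, *Idh2* stood apart at 1.05, with 378, 357, 410, 237 and 290 CPM against 170, 92.6, 194, 214 and 139 CPM (adjusted p = 0.124). None of the 14 passed. The 29 genes of glycolysis and glycogen metabolism had a median of -0.14, with 22 below 0 and none past the test. *Ldhb*, the lactate dehydrogenase subunit of oxidative tissue, was the highest at 1.53, with 304, 298, 266, 145 and 212 CPM against 89.3, 31.2, 100, 128 and 77.5 CPM, and its groups did not overlap. *Slc16a3*, the lactate exporter MCT4 of glycolytic fibres, did not overlap either, at 376 to 462 CPM against 510 to 606 CPM (-0.37, adjusted p = 0.0588). *Pfkfb3*, an activator of glycolysis, was at -0.64 and *Phkb*, a phosphorylase kinase subunit, at -0.32, both with overlap.

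**Figure D5:**
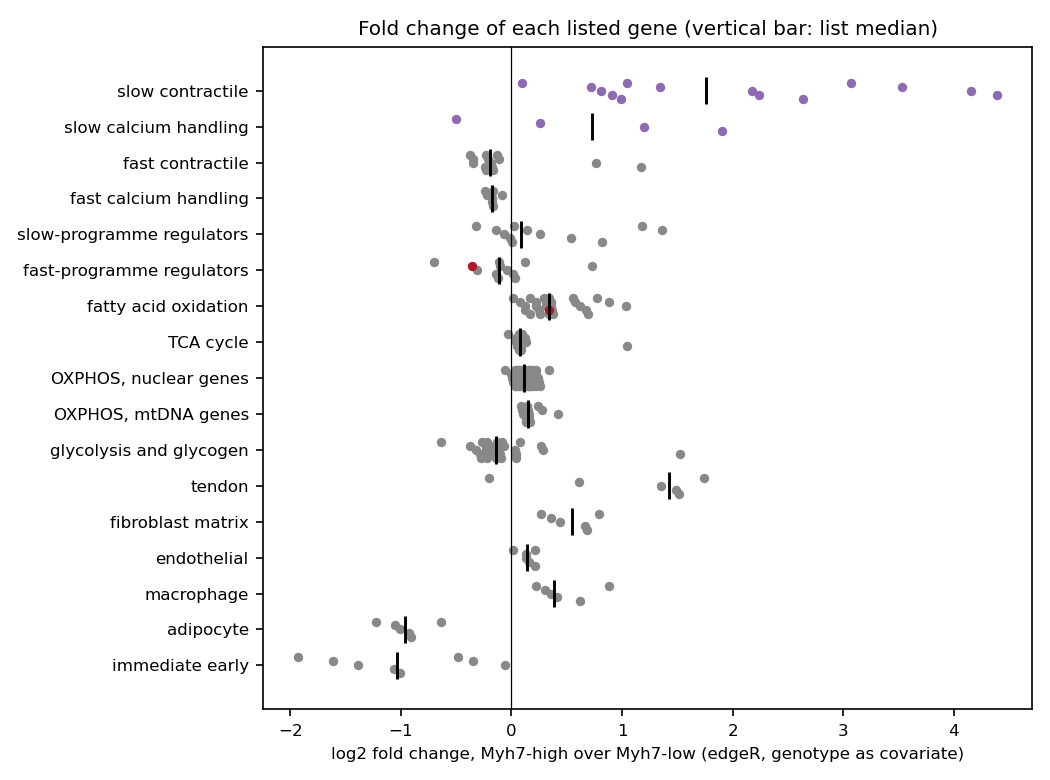
Log2 fold change (Myh7-high over Myh7-low, edgeR) of each gene in 17 lists, with a vertical bar at each list's median and *Myh7* left out. Red points passed the test, grey points did not, and purple points are the slow-fibre genes, for which no test is given. The slow contractile median is 1.76 and that of fat oxidation 0.34.

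Regulators showed smaller and mixed values. None of the 12 regulators of the slow programme passed. *Vgll2*, a TEAD cofactor, was at 60.9 to 95.1 CPM against 26.6 to 57.7 CPM without overlap (log2 fold change 0.82, adjusted p = 0.124), *Prox1* had a value of 1.36 (adjusted p = 0.116) at levels near 1 CPM, and *Nfatc1*, the calcineurin-dependent factor, had -0.32 (adjusted p = 0.0900). *Maf*, a large MAF factor of the type IIB programme, was at 370 to 410 CPM against 484 to 831 CPM without overlap (-0.70, adjusted p = 0.113). Of the striated myosins of other settings, *Myh6* was at 0.569 to 4.70 CPM against 0.0565 to 0.733 CPM and the embryonic *Myh3* at 5.55 to 12.3 CPM against 1.87 to 4.94 CPM, the latter without overlap (1.42, adjusted p = 0.111).

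Markers of other cells were examined next as lists, and no listed gene passed the test. Outside the lists, *Pi16*, named above, was higher in Myh7-high mice without overlap. *Cd248* (0.71, adjusted p = 0.0458 in edgeR) and *Clec3b* (0.40, adjusted p = 0.0480), further genes known from fibroblasts, also passed as higher, but their groups overlapped. Both were chosen here after their values were seen. *Col7a1* and *Adamts9* of the extracellular matrix, named above, passed as lower. The 6 tendon genes summed to 121 to 434 CPM in Myh7-high and 102 to 195 CPM in Myh7-low mice, with a median log2 fold change of 1.42 and 5 of 6 above 0. The sixth was *Scx*, a tendon transcription factor, at -0.20, with 2.70 to 7.09 CPM in Myh7-high and 3.61 to 7.53 CPM in Myh7-low mice. None of the 6 was at 0 in any mouse. *Fmod* (1.49), *Tnmd* (1.52) and *Chad* (1.74; 0.44 with the summed tendon genes as a covariate) of the tendon matrix were lowest among the Myh7-high mice in AHRmKO 19, and *Mkx*, a tendon transcription factor, did not overlap (0.683 to 1.37 CPM against 0.256 to 0.516 CPM, adjusted p = 0.0598). The summed fibroblast matrix genes were at 316 to 590 CPM against 294 to 454 CPM, with a median log2 fold change of 0.55 and 6 of 6 above 0. The macrophage genes summed to 36.7 to 60.2 against 24.3 to 43.6 CPM (median 0.38, 6 of 6 above 0). The adipocyte genes summed to 9.28 to 39.9 against 7.37 to 61.5 CPM, with a median of -0.96 and 6 of 6 below 0. The immediate early genes, which respond to stimulation within minutes, summed to 166 to 333 against 198 to 579 CPM, with a median of -1.04 and 8 of 8 below 0. With the summed tendon genes as a covariate 0 genes passed, and with the summed immediate early genes 2 passed. The other lists held no gene that passed, with median log2 fold changes of 0.14 for endothelial, 0.15 for smooth muscle, -0.28 for Schwann cell, 0.06 for lymphocyte, 0.55 for erythroid, -0.09 for satellite cell, -0.19 for denervation, -0.02 for clock and -0.22 for AHR pathway genes. Further tests of the part of these cells in the differences were not made.

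Finally, the 4 markers were compared between the genotypes, since 3 of the Myh7-high mice were AHRmKO and 2 were AHRfl. *Myh7* was at 160 ± 219 CPM in AHRfl and 250 ± 273 CPM in AHRmKO mice (SD, n = 5 each), a difference of mean log2 CPM of 1.45 (two-sided exact permutation test over 252 assignments, p = 0.460). *Tnnt1*, *Tnni1* and *Myl2* differed by 0.96, 1.01 and 0.71 (exact permutation p = 0.476, 0.524 and 0.595). Adjusted over the 4 genes, every p was 0.595. The genotypes overlapped for all 4 genes.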

How the data were processed

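Total RNA of 10 gastrocnemius muscles was sequenced as paired-end poly(A) libraries. According to the submitters' processing notes and the study's methods, the authors used Trimmomatic 0.36 for trimming and STAR 2.5.2b for mapping to GRCm38, then counted uniquely mapped exonic reads per Ensembl gene with featureCounts, and they deposited raw counts, 1 column a mouse. Whether counting used strand, and the Ensembl release, are not given in the sources used here. Reads carry no molecular identifiers, and intervals cover only the spread between mice.

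Names, positions and exon lengths came from GENCODE M21, which holds 49056 of the 49315 identifiers, and sequences from RefSeq (GRCm38.p6). *Myh7* CPM for the split used the TMM-normalized library size. The members, gene lists and tests were chosen with earlier results of these data known, and the Hox list after the calls were seen. The limb patterning list was likewise not among those planned.

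The tests ran in edgeR 4.0.16 (R 4.3.3). Its filterByExpr (minimum count 10, minimum total 15) selected genes over the cells of genotype and group, library sizes were normalized by TMM, and robust quasi-likelihood tests with genotype as covariate were adjusted by Benjamini-Hochberg over 15904 genes, *Myh7* left out. A prior count of 2 was used for log2 CPM. Named in each direction were the 12 most changed genes among those past the threshold, without overlap, with a mean of at least 1 CPM and outside the lists; 1 of them is not reported here. List members and other genes described were chosen for their role or after their values were seen. DESeq2 1.42.0, limma-voom (limma 3.58.1), other scalings and filters, left-out mice and added covariates were alternatives.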

Additional observations from a re-analysis of the deposited data

Results flagged for a closer look

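Among the slow-fibre markers and the genes named by rule, 54 groups of 5 mice were compared with the critical value for a single distant animal. This value was exceeded in 3 of them. Chance alone exceeds it in about 1 in 20 unselected groups. These genes were chosen with the split and share the same mice, so that rate need not hold here. *Myl2* was at 4.94 CPM in AHRfl 12, against 41.2 to 53.3 CPM in the other Myh7-low mice, and the gap, in log2 CPM, made up 0.892 of the range of its group. *Zfp385b* was at 1.77 CPM in AHRmKO 19, against 2.68 to 3.15 CPM in the other Myh7-high mice (0.721 of the range). *Hip1r* was at 18.3 CPM in AHRmKO 8, against 23.6 to 26.0 CPM in the other Myh7-high mice (also 0.721).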

How the results depend on the processing

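No paired analysis was possible because no animal number occurs in both genotypes or in both groups. Against 71 genes (38 higher and 33 lower), DESeq2 called 589 (316 and 273), limma-voom 8 (3 and 5), library size alone 14 (8 and 6), no filter beyond 1 count 1168 (656 and 512), estimation without robust 29 (19 and 10), *Myh7* as a continuous covariate 134 (86 higher), the AHRmKO mice alone 0 (0 and 0) and a threshold of 0.1 283 (164 and 119). With single mice left out the range was 0 to 327 (0 to 217 higher, 0 to 110 lower). Of the alternatives added after seeing the data, leaving out AHRmKO 19 and AHRmKO 34, the mice nearest the limit, gave 117 (76 higher), the tendon covariate 0 (0 and 0), the immediate early covariate 2 (0 and 2), the *Xist* covariate 7 (4 and 3) and leaving out the 5 libraries with *Xist* counts 0 (0 and 0). The interaction gave 5 genes with DESeq2 and 19 without a filter, and 0 in every fit with a mouse left out. The cause of these differences was not tested. Library size alone moved the median log2 fold change of all genes from 0.01 to 0.08.

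Of the genes described, the log2 fold change of *Myl6b* reversed in the AHRfl mice alone (-0.016), without AHRmKO 9 (-0.017, with a range of -0.017 to 0.17 over single mice left out) and without the libraries with *Xist* counts (-0.10), and those of *Fmod* (-0.036), *Tnmd* (-0.29) and *Pln* (-0.029) with the tendon covariate. The other genes with a fold change in the report that were refitted did not reverse, but some moved by over 1.5 times. Without the libraries with *Xist* counts, *Hoxa11* went from -1.61 to -0.29, *Hoxa13* from -1.51 to -0.43, *En1* from -0.89 to -0.49 and *Lrrc52* from 1.08 to 0.49, and with the tendon covariate *Dkk2* went from 1.47 to 0.95, *Mkx* to 0.83, *Prox1* to 0.78, *Casq2* to 0.58, *Nfatc1* to -0.21 and *Chad* from 1.74 to 0.44. *Myh1* went from 0.77 to 0.43 with the tendon covariate and 1.51 without the libraries with *Xist* counts, *Maf* from -0.70 to -0.43 with the immediate early covariate and -1.07 without those libraries, *Actn3* and *Mybpc2* to -0.16 and -0.21 with the immediate early covariate and *Myh2* from 1.18 to 0.70 in the AHRmKO mice alone. *Sln*, at -0.50 in the main fit, ran from -0.90 to -0.026 over the alternatives besides left-out mice. These are examples, and further genes moved as far. The genotype difference with single mice left out ranged from 0.60 to 2.48 for *Myh7*, 0.20 to 1.66 for *Tnnt1*, 0.31 to 1.86 for *Tnni1* and -0.17 to 1.23 for *Myl2*, reversed for *Myl2* without AHRfl 12 (-0.17), and passed no test. Genes near 1 CPM rest on few counts in a library, such as the 17 to 54 of *Myh7b* in Myh7-low mice.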
